A study of Mus musculus with 8 samples.

Results

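The homeobox transcription factors examined here are the genes of 12 families that set position along the body axis and in early organ fields: Hoxa, Hoxb, Hoxc, Hoxd, Irx, Dlx, Lhx, Meis, Pbx, Msx and Pitx genes and the sine oculis homologues (such as Six4). A gene was included if a non-control probe carried a transcript accession whose RefSeq symbol is one of these family names followed by a number only. This gave 78 genes of the 22911 named genes on the array, and 78 RefSeq symbols of this form exist. Of the 78, 52 were bright enough to test and 26 were not.

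RNA came from TEC71, an immortalized mouse thymic epithelial cell line whose stated origin is the medulla of the thymus, and was labelled with Cy3 and hybridized to 8 single-colour Agilent arrays. The 3 control arrays were TEC71 cells transfected with Cas9n, a nickase form of Cas9, and a single gRNA. The knock-in lines carry T1211A in Gtf2i, the gene of the general transcription factor TFII-I (the labels spell it Gtfi2i): knockin#1, here clone 1, has 3 arrays and knockin#3, here clone 3, has 2. Each knock-in line was taken from its number to be 1 clone, and the labels do not say whether the control was a clone or whether arrays of a group came from separate cultures, so the p-values measure only the spread between these arrays. The comparison asks which transcripts differ in thymic epithelial cells that carry the mutation.

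Homeobox proteins bind DNA through a homeodomain, usually at short sites with a TAAT core. Hox genes lie in 4 clusters and are used in the order of their position, so that low-numbered genes mark anterior and high-numbered genes posterior levels; Pbx and Meis proteins bind DNA together with Hox proteins. Hoxa3 is needed for the thymus to form from its pharyngeal pouch, and Irx, Dlx, Msx, Lhx and Pitx genes pattern ectoderm, pharyngeal arches, limbs and nervous system.

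Levels below are log2 processed signal, a background-corrected fluorescence, relative to the 75th percentile of all probes of the same array, so that 0 is the level of a probe at that percentile. The share of probes well above background was 55.3% to 59.3%, no spot was saturated, and the 75th percentile lay between 268 and 377 signal units. A level is compared between groups for the same probe only, because probes differ in brightness. The number of arrays limits the precision. The Gtf2i probe, which does not read a point mutation, gave 4.41 ± 0.05 (SD, n = 3) in the control, 3.96 ± 0.07 (SD, n = 3) in clone 1 and 3.82 ± 0.03 (SD, n = 2) in clone 3. All 8 of the epithelial markers examined were above background on every control array, as were 6 of the 10 medullary markers on the array (Cldn3, Cldn4, Tnfrsf11a, Krt5, Krt14 and Cd80). Of the other medullary markers, Fezf2, Ccl21a and Spib were above background on no control array and Aire on 1.

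The 250 bases before the RefSeq start (GRCm38.p6) are shown for 4 members that the results turn on, Msx1 and Hoxa10 as members that fell and Hoxb8 and Pbx2 as members that rose. Capitals mark an E-box, CANNTG, a motif type that TFII-I is known to bind, or the homeodomain core TAAT, read as TAAT or ATTA so that both strands are covered. The windows are chr5:37824586-37824835 on the minus strand for Msx1, chr6:52240855-52241104 on the minus strand for Hoxa10 (the first of 2 listed starts), chr11:96281655-96281904 on the plus strand for Hoxb8 and chr17:34592009-34592258 on the plus strand for Pbx2, each written 5′ to 3′ along the gene.
Msx1: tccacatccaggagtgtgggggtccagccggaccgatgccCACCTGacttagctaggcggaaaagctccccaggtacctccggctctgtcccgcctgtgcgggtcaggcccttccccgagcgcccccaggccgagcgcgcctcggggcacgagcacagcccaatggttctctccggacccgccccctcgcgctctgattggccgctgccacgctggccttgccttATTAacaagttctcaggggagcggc
Hoxa10: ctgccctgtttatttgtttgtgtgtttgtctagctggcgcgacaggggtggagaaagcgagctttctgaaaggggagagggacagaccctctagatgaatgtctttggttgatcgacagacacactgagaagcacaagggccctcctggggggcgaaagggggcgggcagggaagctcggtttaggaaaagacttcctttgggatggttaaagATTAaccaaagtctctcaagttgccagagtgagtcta
Hoxb8: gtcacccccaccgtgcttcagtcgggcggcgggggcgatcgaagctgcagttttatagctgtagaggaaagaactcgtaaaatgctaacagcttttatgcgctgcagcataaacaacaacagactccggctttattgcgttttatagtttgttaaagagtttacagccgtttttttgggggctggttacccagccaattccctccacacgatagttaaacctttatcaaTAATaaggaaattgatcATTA
Pbx2: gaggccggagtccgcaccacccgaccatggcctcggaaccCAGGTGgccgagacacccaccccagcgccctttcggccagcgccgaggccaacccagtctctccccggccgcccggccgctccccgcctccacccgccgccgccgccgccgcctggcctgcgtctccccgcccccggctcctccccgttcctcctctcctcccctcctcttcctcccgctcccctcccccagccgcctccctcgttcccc
The Msx1 window held 1 E-box and 1 TAAT core, the Hoxa10 window 1 TAAT core, the Hoxb8 window 2 TAAT cores and the Pbx2 window 1 E-box; marked matches did not overlap. Of the 78 members, 48 had an entry in the promoter table, and Irx1 was not among them. An E-box stood in 25 of the 48 member windows (52.1%) and in 66.0% of all 27025 windows of this length. A TAAT core stood in 27 of the 48 (56.2%) and in 55.3% of all windows. Member windows were richer in the dinucleotide CG, with a median of 13.5 against 6 in all windows. A match describes the letters and is not a site.

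Against the control, 23 of the 52 tested members differed in clone 1 (44.2%), where 31.1% of everything tested differed, and 21 differed in clone 3 (40.4%), where 30.2% of everything tested differed (limma, Benjamini-Hochberg adjusted p under 0.05 over 25352 genes and unnamed transcripts). In this fit, which leaves out slide position, rises outnumbered falls: 17 members to 6 in clone 1, where 14.7% of everything tested rose and 16.5% fell, and 16 to 5 in clone 3, where 13.3% rose and 17% fell. Changes of at least 2-fold were found for 7 members that rose and 4 that fell in clone 1 (4.38% and 4.39% of everything tested) and for 8 that rose and 3 that fell in clone 3 (4.28% and 6.05%). The median log2 difference of the tested members was 0.08 in clone 1 and 0.15 in clone 3, beside -0.05 and -0.04 for everything tested. Both comparisons use the same 3 control arrays, so they are not independent, and their values are given side by side. Of the called members, Irx1 and Hoxa10 were bright enough to test only through the control group, and Hoxc13 and Hoxd3 only through the knock-in groups. Their entry thus rested on the group where they are high. With a filter on all 8 arrays, 46 members were tested, and 15 rose and 5 fell in clone 1. In clone 3, 14 rose and 3 fell, where 32.6% (clone 1) and 31.4% (clone 3) of everything tested were called.

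Position on the slide, inferred here from the code in each array title (such as GE1_1_4), differed between groups. The titles do not name the code as row and column. Row 1 held the 3 controls and clone 1 replicate 1, and row 2 held the other 4 arrays. With the row as a block, 15 members were called in clone 1, of which 10 rose and 5 fell. In clone 3, 10 were called, 5 of them higher and 5 lower, so rises no longer outnumbered falls. Everything tested gave 17.2% and 8.16% called, with 2062 rises and 2287 falls in clone 1 and 997 and 1071 in clone 3. That fit compares clone 1 with the control through replicate 1 alone. Clone 3 has no array in row 1 and the control has none in row 2. Values of clone 3 with the block therefore also rest on clone 1 replicate 1, through the gap between the rows within clone 1. Within row 1, 11 members were called in clone 1, where 11.7% of everything tested were. Of the calls reported here, 14 of 23 in clone 1 and 9 of 21 in clone 3 remained with the block, and 10 of 23 in clone 1 remained within row 1. Calls that the block ended are named beside each gene below. Normexp background correction, with an offset of 50 signal units, gave smaller differences for many dim probes, and its value is given beside a gene where it moved the fold or the log2 difference of a call by over 1.5 times.

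Markers of mesenchyme and fibroblasts also differed between the groups. Of 13 such markers on the array 7 were tested, and none rose. Of the 7, 5 fell in clone 1 (Pdgfra, Twist1, Twist2, Vim and Prrx1), where 16.5% of everything tested fell. In clone 3, 4 fell (the same without Prrx1), where 17% of everything tested fell. Their summed level, on the linear scale relative to the 75th percentile, was 96.3 to 129 in the control arrays, 72.6 to 83.7 in clone 1 and 83.4 to 86.1 in clone 3, and Col3a1, Pdgfrb, Thy1, Dcn and Lum were above background on no control array. The row as a block ended the calls of Twist1 (0.341 in clone 1 and 0.45 in clone 3), of Prrx1 in clone 1 (0.0512) and of Twist2 in clone 3 (0.115), and leaving out single arrays also ended calls of these 3 genes. Of the 8 tested epithelial markers, 3 fell and 1 rose in each line, where 31.1% and 30.2% of everything tested were called. Among them Epcam (-1.1 and -1.01) and Krt5 (-1.32 and -1.13) fell, and Krt19 rose (0.58 and 1.08). Of the 5 tested cortical markers, 1 rose and 1 fell in each line. Of the 6 tested medullary markers Cldn4 rose (1.52 and 1.17), Krt5 and Cd80 (-2.31 and -2.86) fell, and 3 passed in neither line. The part of these markers in the results on the members was not tested. None of the 4 tested haematopoietic markers and the 1 tested endothelial marker differed in either clone.

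Among the Iroquois genes, Irx1 was present in the control and fell below detection in both knock-in lines. Irx1, which patterns the nervous system, limb and lung, read 1.06, 1.1 and 1.07 on the control arrays, against -7.10, -6.74 and -7.05 in clone 1 and -6.96 and -6.86 in clone 3. The probe was well above background on all 3 control arrays and on none of the 5 knock-in arrays. The level was therefore at least 59.1-fold lower in clone 1 (limma adjusted p = 2.16e-08) and at least 58.7-fold lower in clone 3 (3.24e-08), a bound set against the dimmest signal that counts as well above background. With normexp the log2 difference was -3.61 and -3.49, so the bound holds for the processed signal and not for that scale.

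Irx2 lies next to Irx1, with no protein-coding gene between them, and did the opposite. It read 0.61, 0.61 and 0.51 in the control, 1.21, 0.98 and 1.13 in clone 1 and 1.24 and 0.97 in clone 3, and rose by 0.53 on the log2 scale in clone 1 (SE 0.12, adjusted p = 0.00981) and by 0.53 in clone 3 (SE 0.13, adjusted p = 0.0168). All 5 knock-in arrays lay above the 3 controls. The clone 3 call was lost when the row was a block (adjusted p = 0.11) and without control replicate 3 or clone 3 replicate 1 (0.0506 and 0.109). Irx4, the next gene along and known for its role in the ventricle of the heart, differed by -0.12 (SE 0.14) and 0.02 (SE 0.16), neither passing the test.

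In the second Iroquois group, made up of Irx3, Irx5 and Irx6 in a row, Irx3 alone passed. Irx3, a regulator of neural and limb patterning, read -1.09, -0.83 and -0.93 in the control, -2.30, -2.05 and -1.50 in clone 1 and -1.73 and -1.79 in clone 3. Every knock-in array lay below the controls, and the clone 1 arrays were the more spread (SD 0.41). On the log2 scale the difference was -1.0 (SE 0.19, adjusted p = 0.0049) in clone 1 and -0.81 (SE 0.22, adjusted p = 0.0224) in clone 3. The clone 3 call was lost with median scaling (0.0553) and without control replicate 2, control replicate 3, clone 3 replicate 1 or clone 3 replicate 2 (0.0595 to 0.112). Normexp gave -0.67 and -0.48, and the row as a block -1.33 in clone 3. Irx5 differed by 0.20 and 0.25 and Irx6 by -0.02 and -0.26, and neither passed.

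Msx1, a homeobox repressor that BMP signals induce in the pharyngeal arches, tooth and limb, fell in both lines. It read 1.03, 1.12 and 1.1 in the control, -1.61, -1.54 and -1.64 in clone 1 and -1.0 and -0.89 in clone 3, so the 3 groups did not overlap. The fall was 6.41-fold in clone 1 (log2 -2.68, SE 0.10, adjusted p = 4e-07) and 4.08-fold in clone 3 (log2 -2.03, SE 0.11, adjusted p = 4.69e-06), with -2.08 in clone 1 with normexp. Of its relatives, Msx2 differed by -0.41 (SE 0.27) and -0.29 (SE 0.30) without passing. Msx3 fell by 0.57 in clone 1 (SE 0.18, adjusted p = 0.0415) and gave -0.54 in clone 3 (adjusted p = 0.0748); the clone 1 call was lost with normexp background correction (-0.22, adjusted p = 0.274), with the row as a block (0.0699) and without any single control or without clone 1 replicate 1 or 3 (0.0722 to 0.131).

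Among the sine oculis homologues, Six2, Six3 and Six6 were above background on no array. Six4, a factor of muscle development, read 1.15, 1.19 and 1.20 in the control, 1.65, 1.65 and 1.66 in clone 1 and 1.85 and 1.88 in clone 3, a log2 difference of 0.47 (SE 0.09, adjusted p = 0.00471) and 0.68 (SE 0.10, adjusted p = 0.00152). With the row as a block neither passed (0.0537 and 0.0642), and a second Six4 probe was above background on no array. A mean over its probes gave 0.32 in clone 1, which did not pass (adjusted p = 0.104), and 0.88 in clone 3 (adjusted p = 0.00282). Six5, best known from the myotonic dystrophy locus, fell: its arrays read -1.17, -1.11 and -1.09 in the control, -1.76, -1.66 and -1.74 in clone 1 and -1.91 and -1.79 in clone 3 (log2 -0.59, SE 0.10, adjusted p = 0.00209; log2 -0.72, SE 0.11, adjusted p = 0.00158), with -0.38 and -0.43 with normexp.

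**Figure D1:**
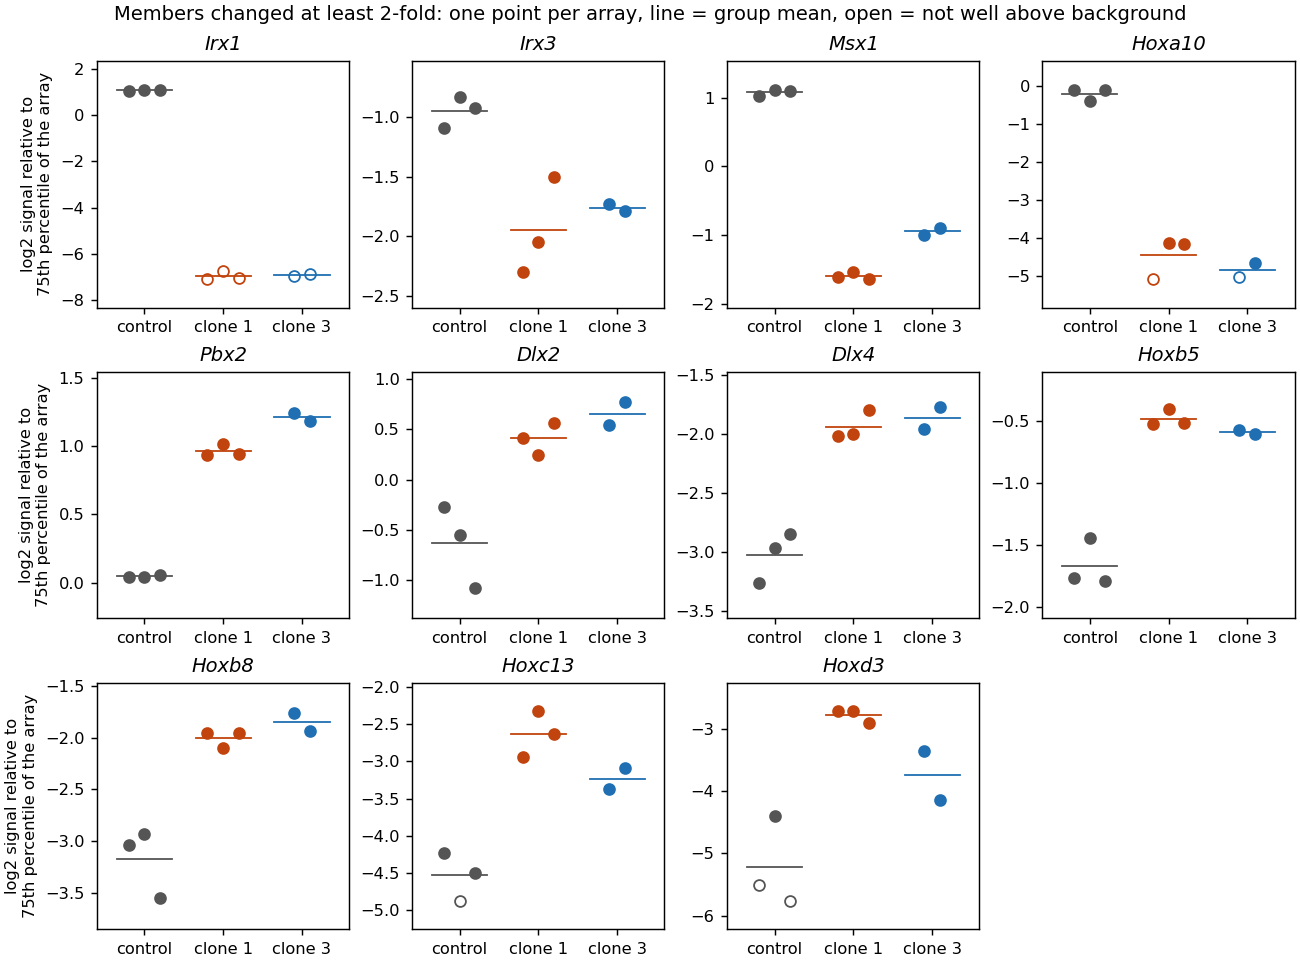
Log2 signal, as a difference from the array's 75th percentile, for 11 members changed at least 2-fold in a knock-in line, by group (control, clone 1, clone 3); each point is an array, lines are group means, and open points are not well above background. The 5 knock-in arrays of Irx1 are all open near -7. Because the 11 genes were picked for a called change, the separation of knock-in arrays from controls in their panels is no added result. Vertical axes differ between panels.

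Dlx genes pattern the pharyngeal arches, forebrain and placenta and sit in the genome as pairs. From each of the pairs Dlx1 with Dlx2 and Dlx3 with Dlx4, the even-numbered gene passed. Dlx2 read -0.27, -0.56 and -1.08 in the control, 0.42, 0.24 and 0.57 in clone 1 and 0.54 and 0.77 in clone 3, a rise of 1.04 (SE 0.20, adjusted p = 0.00504) and 1.29 (SE 0.23, adjusted p = 0.00352) on the log2 scale. The controls were the more spread (SD 0.41) but lay below all 5 knock-in arrays, and with the row as a block neither rise passed (0.0557 and 0.102). Dlx4 read -3.26, -2.97 and -2.84 in the control, -2.02, -2.0 and -1.80 in clone 1 and -1.96 and -1.77 in clone 3 (log2 1.08, SE 0.14, adjusted p = 0.000573; log2 1.16, SE 0.15, adjusted p = 0.000873), and with the row as a block clone 3 did not pass (0.0608); with normexp the rises were 0.45 and 0.53. Dlx3, needed for placenta, hair and tooth, gave 0.07 (SE 0.12) and 0.11 (SE 0.13) and passed in neither; Dlx5 was above background on no array and Dlx6 on 1.

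Dlx1 rested on a single array. Its control arrays read -1.59, -1.43 and -2.05 and its clone 3 arrays -1.41 and -1.28, while clone 1 read 0.37 on replicate 1 and -1.66 and -1.52 on replicates 2 and 3. The fitted difference of clone 1 was 0.75 (SE 0.48, adjusted p = 0.283), and it was 0.10 (adjusted p = 0.763) without replicate 1. With the row as a block, where replicate 1 stands for clone 1, it was 2.06 (adjusted p = 0.00164). Among the 52 tested members the gap between replicate 1 and the mean of the other clone 1 arrays was 1.96 for Dlx1, the largest; it was 0.94 for Hoxa10 and 0.52 for Irx3, with a median of 0.11 and 46 members under 0.4.

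**Figure D2:**
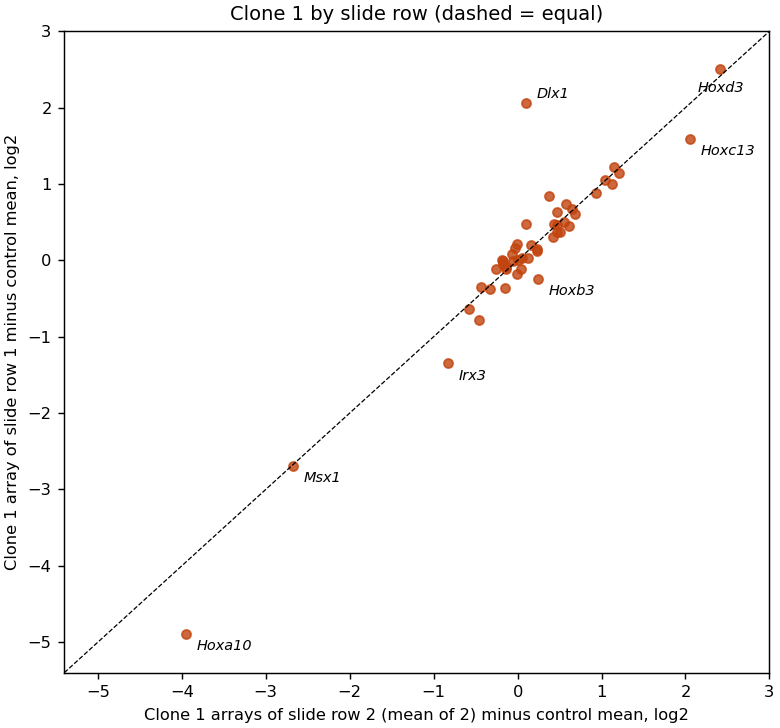
Log2 difference from the control mean in the clone 1 array of slide row 1 (vertical) against the mean of the 2 clone 1 arrays of slide row 2 (horizontal), a point for each tested member shown; Irx1, near -8 on both axes, lies outside the plot, and the dashed line marks equal values. Most members lie along the line, and Dlx1 stands off it at 2.06 against 0.10.

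Of the 39 Hox genes on the array 23 were tested. Clone 1 had 10 called rises and 1 called fall among them, where 14.7% of everything tested rose and 16.5% fell; clone 3 had 8 and 1, where 13.3% rose and 17% fell. The fall was Hoxa10, a 5′ gene of its cluster that marks posterior levels and is used in the uterus, limb and blood. It read -0.10, -0.41 and -0.09 in the control, -5.09, -4.13 and -4.17 in clone 1 and -5.03 and -4.66 in clone 3. Only 2 of the 3 clone 1 arrays and 1 of the 2 clone 3 arrays were well above background. The log2 difference was -4.26 (SE 0.26, adjusted p = 7.54e-06) in clone 1 and -4.65 (SE 0.29, adjusted p = 1.08e-05) in clone 3. It was -2.13 and -2.19 with normexp, -4.89 and -5.58 with the row as a block, and -3.60 in clone 3 with a mean over its probes. A second Hoxa10 probe was above background on every control array and on none of the knock-in arrays. Hoxa9, the neighbour on the 3′ side, did not pass (-0.01, SE 0.15, and -0.03, SE 0.17; adjusted p = 0.97 and 0.924), and Hoxa11 and Hoxa13 on the other side were above background on no array.

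Of the 8 other tested Hoxa genes, 2 rose in clone 1 and 1 in clone 3, beside 14.7% and 13.3% of everything tested. Hoxa2, the gene that gives the second pharyngeal arch its identity, read -0.71, -0.28 and -0.41 in the control, 0.14, 0.15 and 0.28 in clone 1 and -0.01 and 0.30 in clone 3, and rose by 0.66 (SE 0.14, adjusted p = 0.00886) and 0.61 (SE 0.16, adjusted p = 0.021). With the row as a block neither passed (0.0995 and 0.312), and the clone 3 call was lost without control replicate 1 or clone 3 replicate 2 (0.0553 and 0.149). Hoxa5 rose by 0.43 in clone 1 (SE 0.11, adjusted p = 0.0196) and gave 0.27 in clone 3 (adjusted p = 0.149); the clone 1 call was lost with the row as a block (0.183) and without control replicate 2 or 3 or clone 1 replicate 2 or 3 (0.0587 to 0.0648). Hoxa3, which the thymus needs in order to form, read 0.42, 0.50 and 0.64 in the control, 0.40, 0.41 and 0.37 in clone 1 and 0.18 and 0.43 in clone 3, and did not pass (-0.13, SE 0.11; -0.22, SE 0.13). Hoxa4, Hoxa6 and Hoxa7 also passed in neither line, with Hoxa7 at 0.46 and 0.36 (adjusted p = 0.0899 and 0.226).

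In the Hoxb cluster 5 of the 8 tested genes rose in clone 1 and 5 in clone 3, beside 14.7% and 13.3% of everything tested, in both cases Hoxb2, Hoxb4, Hoxb5, Hoxb6 and Hoxb8. Hoxb5, a gene of cervical and upper thoracic levels, read -1.77, -1.44 and -1.79 in the control, -0.53, -0.40 and -0.52 in clone 1 and -0.57 and -0.60 in clone 3. Hoxb8, used in thoracic patterning and in myeloid cells, read -3.04, -2.93 and -3.55 in the control, -1.95, -2.10 and -1.95 in clone 1 and -1.76 and -1.93 in clone 3. For both genes the knock-in arrays lay close together and above every control. Hoxb5 rose by 1.19 (SE 0.12, adjusted p = 0.000176) and 1.08 (SE 0.14, adjusted p = 0.000669), and Hoxb8 by 1.17 (SE 0.17, adjusted p = 0.00105) and 1.33 (SE 0.19, adjusted p = 0.00117); a second, dimmer Hoxb8 probe rose by 1.18 and 1.65. With normexp the Hoxb5 rise in clone 1 was 0.74 and the Hoxb8 rises were 0.57 and 0.66.

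The other Hoxb rises were smaller. Hoxb2, which acts in the hindbrain and second arch, rose by 0.56 (SE 0.11, adjusted p = 0.00543) and 0.83 (SE 0.12, adjusted p = 0.00156). Hoxb4, known for expanding blood stem cells, rose by 0.66 (SE 0.11, adjusted p = 0.00225) and 0.63 (SE 0.12, adjusted p = 0.00514), and Hoxb6 by 0.45 (SE 0.10, adjusted p = 0.00873) and 0.65 (SE 0.11, adjusted p = 0.0029). Once the row was a block, Hoxb2 and Hoxb6 passed in neither line (0.0917 and 0.1; 0.0649 and 0.0777) and Hoxb4 did not pass in clone 3 (0.117). Hoxb3 and Hoxb7, interspersed with the genes that rose, and Hoxb9, which lies beyond Hoxb8, passed in neither line, with differences between -0.22 and 0.21.

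**Figure D3:**
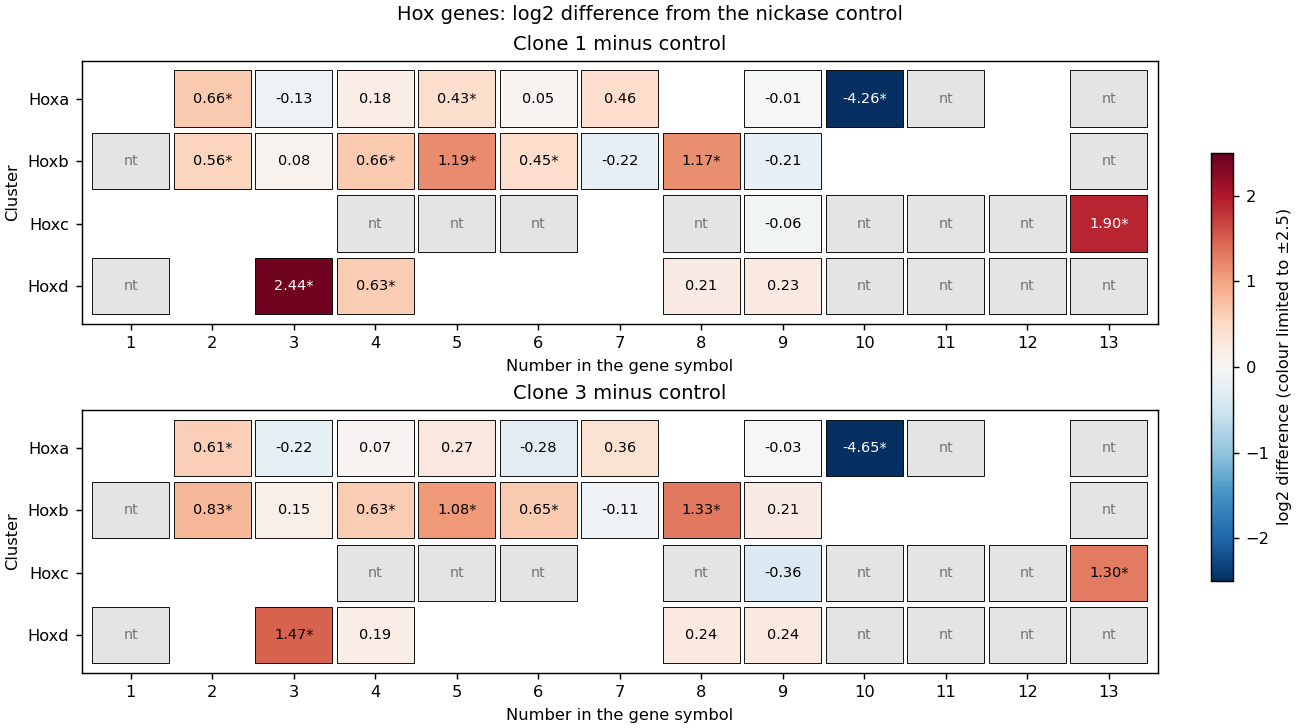
Log2 difference from the control for the Hox genes, by cluster (rows) and by the number in the symbol (columns), for clone 1 (top) and clone 3 (bottom); an asterisk marks an adjusted p under 0.05, nt a gene not bright enough to test, and an empty place no gene shown. Rises fall in the Hoxb row at 2, 4, 5, 6 and 8 and at Hoxa2, Hoxc13 and Hoxd3 in both grids, and Hoxa10 is the only called fall.

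In the Hoxc and Hoxd clusters most genes were too dim to test, 7 of 9 and 5 of 9. Hoxc13, a hair and nail keratin regulator at the 5′ end of its cluster, was tested, while Hoxc12, Hoxc11 and Hoxc10 beside it were above background on no array. It read -4.23, -4.87 and -4.50 in the control, where 2 of 3 arrays were above background, -2.94, -2.32 and -2.63 in clone 1 and -3.37 and -3.10 in clone 3. The rise was 1.90 (SE 0.21, adjusted p = 0.000235) in clone 1 and 1.30 (SE 0.23, adjusted p = 0.00366) in clone 3; with normexp background correction the rises were 0.58 and 0.38. The clone 3 rise was lost with normexp (0.0832), and the block on the row gave 0.84 without passing (0.205). Hoxd3, an anterior gene with roles in neck vertebrae and in cell adhesion, read -5.51, -4.40 and -5.75 in the control, with 1 of 3 arrays above background, -2.72, -2.72 and -2.92 in clone 1 and -3.37 and -4.14 in clone 3. Like Hoxc13, it was bright enough to test only through the knock-in groups, where it is high. Its rise was 2.44 (SE 0.34, adjusted p = 0.000948) in clone 1 and 1.47 (SE 0.38, adjusted p = 0.02) in clone 3, and with normexp it was 0.51 and 0.24. The clone 3 rise did not pass with normexp (0.2), with the row as a block (0.216), or without control replicate 1, control replicate 3 or clone 3 replicate 1 (0.0578 to 0.14).

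Hoxd4, the neighbour of Hoxd3, rose by 0.63 in clone 1 (SE 0.19, adjusted p = 0.0391) and gave 0.19 in clone 3 (SE 0.22, adjusted p = 0.567). The clone 1 call was lost with the row as a block (0.127) and without control replicate 1 or 3 or clone 1 replicate 1 or 2 (0.106 to 0.124). Hoxd8 depended on the probe: its brighter probe gave 0.21 and 0.24 and did not pass, and its dimmer probe rose by 0.68 (adjusted p = 0.00466) and 0.87 (adjusted p = 0.0027). Hoxd9 and Hoxc9 passed in neither line.

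Of the 7 Meis and Pbx genes, the cofactors that bind DNA with Hox proteins, only Meis1 and Pbx2 passed by their brightest probe. Both were higher in each line, beside 14.7% (clone 1) and 13.3% (clone 3) of everything tested called higher. By that probe no gene of the 7 was called lower, beside 16.5% and 17% of everything tested. Pbx2 read 0.04, 0.04 and 0.06 in the control, 0.93, 1.02 and 0.94 in clone 1 and 1.24 and 1.18 in clone 3. Within each group the arrays differed by far less than between groups, and the rise was 0.92 (SE 0.09, adjusted p = 0.000157) and 1.16 (SE 0.10, adjusted p = 9.5e-05), with a second probe at 0.65 and 0.57. Meis1, also a leukaemia cofactor of Hoxa9, read 2.26, 2.30 and 2.24 in the control, 2.77, 2.70 and 2.95 in clone 1 and 3.03 and 2.84 in clone 3. It rose by 0.54 (SE 0.11, adjusted p = 0.00642) and 0.67 (SE 0.12, adjusted p = 0.00447), while with the row as a block neither passed (0.0769 and 0.139). A second Meis1 probe gave 0.31 and -0.08 (adjusted p = 0.296 and 0.838). A mean over the Meis1 probes gave 0.43 in clone 1 (adjusted p = 0.0259) and 0.29 in clone 3, where it did not pass (adjusted p = 0.132). Pbx3 differed by probe: its brightest probe gave -0.35 and -0.03, while another fell by 0.52 (adjusted p = 0.00675) and 0.46 (adjusted p = 0.0199). Meis2, Meis3 and Pbx4 passed in neither line.

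The LIM-homeobox (Lhx) and Pitx families, with 4 and 2 tested genes, held 1 call between them, in clone 3. Of everything tested, 31.1% were called in clone 1 and 30.2% in clone 3. Of the 4 tested Lhx genes Lhx6, which is expressed in the oral side of the first arch and in interneurons, rose in clone 3 (0.49, SE 0.16, adjusted p = 0.0492) and gave 0.04 in clone 1. That call was lost without either clone 3 array, any single control or clone 1 replicate 1 or 2 (0.0556 to 0.192), with a mean over its probes (0.01, adjusted p = 0.973), and with the row as a block (0.186); normexp gave 0.28. Lhx1, Lhx3 and Lhx8 passed in neither line. Pitx1, a hindlimb and first-arch gene, read between 4.35 and 4.78 on all 8 arrays and gave 0.09 (SE 0.14) and 0.06 (SE 0.15); Pitx3 gave 0.53 (SE 0.54) and 0.92 (SE 0.61) from a probe that was above background on 2 arrays of each group.

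**Figure D4:**
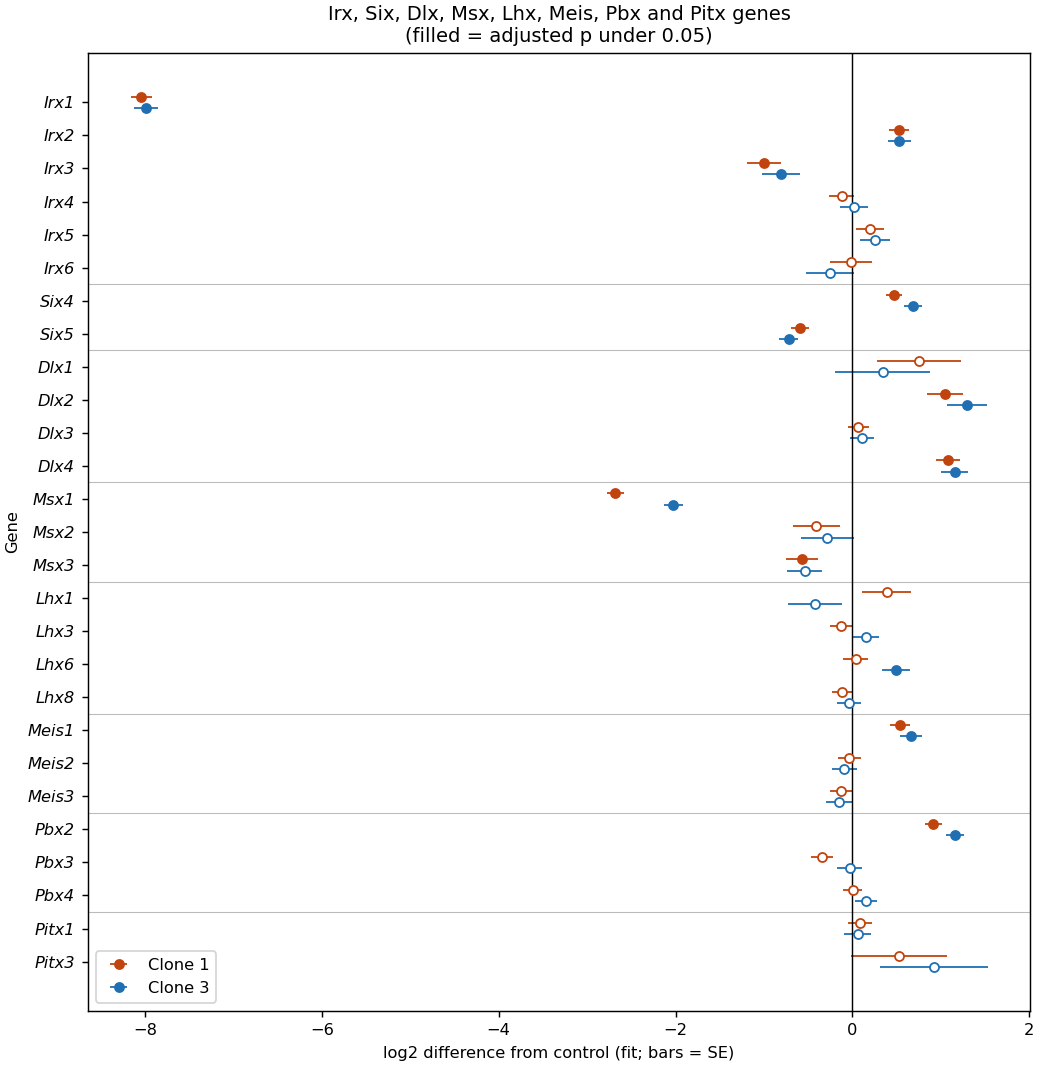
Fitted log2 difference from the control, with its SE as a bar, for 27 tested genes of the families outside the Hox clusters in clone 1 and clone 3; filled points have an adjusted p under 0.05. Irx1 stands near -8, a measured difference whose knock-in arrays are below detection, followed by Msx1 at -2.68 and -2.03, while most other genes lie within 1.5 of 0.

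The 26 members that were not tested were above background on every array of no group, 21 of them on no array at all. Those above it on at least 1 array included Dlx6, Hoxb13, Hoxc6 and Hoxc8. Hoxb13, a prostate and tail-end gene, read -5.07, -4.39 and -4.61 in the control, where 2 of 3 arrays were above background, against -7.37, -6.76 and -7.10 in clone 1 and -7.06 and -7.00 in clone 3, where none were. It did not meet the rule for testing, and no difference is claimed.

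Between the knock-in lines, none of the 52 tested members differed by limma after adjustment, where 0.0749% of everything tested did, and 7 had an unadjusted p under 0.05 (Hoxa6, Hoxc13, Hoxd3, Lhx1, Lhx6, Msx1 and Pbx2), against 10.8% of everything tested. The smallest adjusted p was that of Msx1, which was 0.65 higher on the log2 scale in clone 3 than in clone 1 (SE 0.11, adjusted p = 0.103). Hoxd3 was 0.97 lower (SE 0.38, adjusted p = 0.424) and Hoxc13 0.60 lower (SE 0.23, adjusted p = 0.415) in clone 3 than in clone 1. With 3 and 2 arrays a missed threshold does not show that the lines are alike.

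Genes that act on Hox clusters or with the member factors were examined as 3 lists. Of 29 tested Polycomb and Trithorax genes, which hold Hox genes silent or active, clone 1 had 4 higher and 3 lower and clone 3 had 4 higher and 1 lower, where 31.1% and 30.2% of everything tested were called (median log2 -0.09 and 0.06). Sfmbt2, a Polycomb-group protein with MBT domains, read -6.80, -7.39 and -6.74 in the control, above background on no array, and -0.70, -0.65 and -0.44 in clone 1 and -0.55 and -0.70 in clone 3. It was at least 20.9-fold higher in clone 1 and at least 20.4-fold higher in clone 3 (adjusted p = 1.44e-07 and 3.64e-07). The log2 difference was 2.16 and 2.02 with normexp, under that bound, and 3.94 and 3.76 with a mean over its probes. Cbx6, a reader subunit of a Polycomb complex, rose by 0.88 and 0.86, Yy1 rose by 0.57 and 0.69, and Pcgf6 fell by 0.77 and 0.54; with the row as a block the clone 3 changes of these 3 genes did not pass (0.0929, 0.0744 and 0.0637), and that of Pcgf6 was lost without clone 3 replicate 1 (0.0869).

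Retinoic acid activates 3′ Hox genes. Of 11 tested genes of retinoic acid handling and Cdx input, clone 1 had 3 higher and 2 lower and clone 3 had 2 higher and 3 lower, beside 31.1% and 30.2% called among everything tested (median log2 -0.05 and -0.04). Cyp26b1, the enzyme that degrades retinoic acid, read 2.74, 2.74 and 2.83 in the control, 0.85, 0.79 and 0.55 in clone 1 and 0.57 and -0.02 in clone 3, a difference of -2.04 (SE 0.16, adjusted p = 3.72e-05) and -2.5 (SE 0.18, adjusted p = 2.72e-05). Dhrs3, which turns retinaldehyde back to retinol, fell by 2.19 (SE 0.23) and 2.05 (SE 0.26), the latter not passing with the row as a block (0.0588). Normexp gave -1.23 and -1.11 for Dhrs3, and a mean over its probes -1.17 and -1.02. The receptor gene Rara rose by 0.55 and 0.80, and Rdh10, which makes retinaldehyde, by 0.63 and 0.56; in clone 3 neither passed with the row as a block (0.0555 and 0.0628), and Rdh10 was lost without clone 3 replicate 2 (0.0581). Rarb, itself a retinoic acid target, and the enzymes Aldh1a2, Aldh1a3 and Cyp26a1 were above background on no control array.

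Of 18 tested partners of the member factors, clone 1 had 4 higher and 2 lower, as had clone 3, where 31.1% and 30.2% of everything tested were called (median log2 -0.03 and 0.01). Eya2, a transcriptional co-activator and phosphatase, read -5.30, -4.54 and -4.79 in the control, with 1 of 3 arrays above background, -3.89, -3.81 and -3.98 in clone 1 and -3.28 and -3.43 in clone 3. It rose by 0.99 (SE 0.19, adjusted p = 0.00439) and 1.52 (SE 0.21, adjusted p = 0.001), and neither passed with normexp (0.14 and 0.30, adjusted p = 0.466 and 0.103) or with the row as a block (0.0516 and 0.0503). Pbxip1, a protein that binds Pbx factors, rose by 0.86 and 0.86, and Eya1, which the thymus needs to form, gave -0.31 (adjusted p = 0.167) in clone 1 and fell by 0.66 (adjusted p = 0.0205) in clone 3. The Pbxip1 and Eya1 calls of clone 3 did not pass with the row as a block (0.0818 and 0.192), and that of Eya1 was lost without control replicate 3 or clone 3 replicate 1 (0.0599 and 0.107). Zfp503, a zinc-finger repressor, rose by 0.80 and 0.80, and Ssbp2, which joins Ldb1 complexes with Lhx proteins, by 0.67 and 0.49. Ssbp3 and Ssbp4, relatives of Ssbp2, went the other way: Ssbp3 fell by 0.60 (adjusted p = 0.00326) and 0.46 (adjusted p = 0.0198), and Ssbp4 fell by 0.47 in clone 1 (adjusted p = 0.0243) and gave -0.17 in clone 3 (adjusted p = 0.43). With the row as a block Ssbp3 in clone 3 (0.209), Ssbp4 in clone 1 (0.109) and Zfp503 in clone 1 (0.0892) did not pass. The Ssbp4 call was lost without any single array of the control or clone 1 (0.057 to 0.0697), and the Ssbp3 call in clone 3 without control replicate 2 or 3 or clone 3 replicate 2 (0.0501 to 0.132). The clone 3 calls of Zfp503 and Ssbp2 were lost with the row as a block (0.284 and 0.221) and without clone 3 replicate 2 (0.065 and 0.118), and that of Ssbp2 also without control replicate 2 or 3 (0.0513 and 0.0524).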

How the data were processed

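The authors deposited a processed Cy3 intensity for each spot, linear and already corrected for background, with flags for signal above background, saturation and outliers. The submitters' processing notes name Agilent Feature Extraction 11.5.11; file headers name version 11.5.1.1 and an array design on mm9, so array coordinates are not given. Control spots were dropped, and so were the 114 to 242 spots of an array with a non-uniformity or outlier flag. From each log2 signal the array's 75th percentile was subtracted, and spots of a probe were averaged. Of 56605 distinct probes, 32994 received a symbol through RefSeq accessions (GRCm38.p6). A gene was represented by its brightest probe, and tested where all arrays of some group flagged that probe as well above background. A single limma fit (version 3.58.1, R 4.3.3; lmFit then eBayes) covered the 3 groups with 5 residual degrees of freedom, so that clone 3 borrows spread from the others. Tests were two-sided with p-values adjusted by Benjamini-Hochberg over 25352 genes and unnamed transcripts at a threshold of 0.05. The script was tested on simulated data. Members were named for their values by array if they changed at least 2-fold and passed in at least 1 line, or switched between detected and not detected; Irx2, Six4, Six5, Hoxa2, Hoxa3, Meis1, Dlx1 and Hoxb13 are given by array as well, chosen after their values were seen, and other members with fewer values. Alternatives were background correction, scaling, the filter on dim probes, the probe rule, the variance model, slide row, the groups in the fit and each array left out. Promoter windows come from the RefSeq table of GRCm38.p6. The members and gene lists were chosen with earlier results of these data known. A few members are counted but not reported by name here.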

Additional observations from a re-analysis of the deposited data

How the results depend on the processing

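Each result was recomputed under 18 alternatives for clone 1 and 17 for clone 3. None turned the direction of a call. The count of members called in clone 1 was 23 as reported, 15 with slide row as a block and 11 within row 1 alone; in clone 3 it was 21 as reported and 10 with the row as a block. Without 1 control or clone 1 array, 21 to 22 members were called in clone 1, where 24.1% to 26.5% of everything tested were. In clone 3, 17 to 21 members were called in these fits, where 23.5% to 29.3% of everything tested were. The members tested were 52 or 53. Between the lines the count was 0 under every alternative. Fits were run with each array left out in turn. The calls of 20 of 23 members in clone 1 and 16 of 21 in clone 3 were kept in every such fit. In every setting run, 10 were kept in clone 1, among them Dlx4, Hoxa10, Hoxb5, Hoxc13, Hoxd3, Irx1, Irx3, Msx1 and Pbx2, and 8 in clone 3, among them Hoxa10, Hoxb5, Hoxb8, Irx1, Msx1, Pbx2 and Six5; settings whose filter left a gene out are not counted for it. Without the filter on dim probes the calls of Hoxa5, Hoxd4 and Msx3 in clone 1 (adjusted p = 0.0777 to 0.12) and of Hoxa2, Hoxd3, Irx2, Irx3 and Lhx6 in clone 3 (0.0626 to 0.143) were lost. Within row 1 the calls of Hoxb4, Hoxb8, Irx2 and Six5 in clone 1 were lost (0.0583 to 0.0693) beside those that the block ended. The cause of the lower counts with the row was not tested. The fit estimates clone 1 from a single row 1 array. It reaches clone 3 only through the gap between that array and the other clone 1 arrays. No paired analysis was possible because the labels give the arrays no replicate numbers shared between groups. Signal over background limits Hoxa10, Hoxc13, Hoxd3 and the untested members, whose dim arrays give imprecise differences.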

Other observations

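Of 14 tested genes of the pharyngeal pouch and thymus patterning, clone 1 had 4 higher and 3 lower than the control, as had clone 3, where 31.1% and 30.2% of everything tested were called (median log2 -0.09 and -0.16, beside -0.05 and -0.04 for everything tested). Bmp4, a signal that induces Msx1 in arch tissue, read -2.60, -2.64 and -2.36 in the control, 1.69, 1.37 and 1.62 in clone 1 and 1.20 and 1.27 in clone 3, a rise of 4.09 (SE 0.13, limma adjusted p = 2.16e-07) and 3.77 (SE 0.14, adjusted p = 6.99e-07) on the log2 scale (2.93 and 2.69 with normexp), while Msx1 itself fell. Foxa1 rose by 0.89 and 0.85, Tbx1, a pharyngeal regulator, fell by 1.0 and 0.82, and Gata3 fell by 0.76 and 0.91. With the row as a block these 3 did not pass in clone 3 (0.122, 0.0677 and 0.0501).

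Of 38 tested homeobox genes outside the member families, clone 1 had 4 higher and 6 lower and clone 3 had 3 higher and 5 lower, where 31.1% and 30.2% of everything tested were called. Rhox5, an X-linked homeobox gene of the reproductive tract, read -0.76, -0.70 and -0.57 in the control, 4.75, 4.80 and 5.09 in clone 1 and 4.10 and 4.33 in clone 3 (log2 5.55, SE 0.13, adjusted p = 8.93e-08; log2 4.89, SE 0.15, adjusted p = 2.86e-07). Shox2, a limb and heart pacemaker gene, read -0.44, -0.23 and -1.04 in the control and between -6.32 and -4.27 on the knock-in arrays, above background on 1 of 3 clone 1 arrays and on both clone 3 arrays (log2 -4.76, SE 0.41, adjusted p = 5.91e-05; log2 -3.81, SE 0.46, adjusted p = 0.00049), with -2.01 and -1.88 with normexp and -5.76 and -5.30 with the row as a block. Emx2, a forebrain and urogenital gene, fell by 1.88 and 1.75, and Prrx2, a mesenchymal gene, fell by 0.75 and 0.82.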
